A study of Mus musculus with 9 samples.

Results

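Benzo[a]pyrene (BaP, 1 uM) was compared directly with 7,12-dimethylbenz-[a]anthracene (DMBA, 50 nM) in cultured neonatal mouse ovaries. The comparison takes 6 of the 9 arrays of the series, chosen by their titles: 3 BaP arrays and 3 DMBA arrays. The remaining 3 arrays, from ovaries given the vehicle acetone at 0.01%, are used here only as a reference level. All ovaries came from Swiss mice at postnatal day 3 to 4 and were cultured for 96 hours (4 days), and RNA was hybridised to Illumina mouse Ref-8 beadchips. Nothing in the labels tells whether the 3 arrays of each group come from different animals, different cultures or repeats of a single extract. The p-values therefore reflect only how far these samples vary, and that variation may be technical. The doses differ between the compounds, so compound and dose cannot be told apart in any difference below.

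DMBA and BaP are polycyclic aromatic hydrocarbons, found in combustion products and tobacco smoke. DMBA is a benz[a]anthracene that carries methyl groups, whereas BaP is an unmethylated fused-ring hydrocarbon. Such compounds bind the aryl hydrocarbon receptor, a transcription factor that induces enzymes of xenobiotic metabolism, and those enzymes convert them to metabolites that bind DNA. The neonatal mouse ovary holds mostly primordial follicles, each an oocyte with a layer of flat granulosa cells, among stroma, vessels, surface epithelium and resident immune cells. In an RNA sample of the whole organ, fewer cells of a type and less RNA per cell cannot be told apart.

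Levels are log2 probe signals after background correction and quantile normalization, and differences are BaP minus DMBA on that log2 scale, with a standard error (SE) and an adjusted p from limma. Each gene was represented by its brightest probe, 17889 genes in all. The median raw signal was 94.7 to 104.1 on the BaP arrays, 105.2 to 126 on the DMBA arrays and 105.8 to 133.7 on the acetone arrays, so the BaP arrays were the dimmest as scanned. DMBA replicate 3 stood apart from the other DMBA arrays: its deviations from the group mean had an SD of 0.153, against 0.0785 to 0.123 on the other 8 arrays. Precision is limited by having 3 arrays in each group, and the median SE of a difference was 0.0942.

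BaP-treated ovaries gave far lower signals than DMBA-treated ovaries for some secreted antimicrobial protein genes, and lower signals for several antigen-presentation and macrophage genes. They gave higher signals for the protease inhibitor gene Serpinb2 and the purine-degrading enzyme gene Xdh. Of 17889 genes, 261 passed an adjusted p of 0.05, which is 1.46% of those tested. Of these, 121 were higher with BaP (0.676%) and 140 were lower (0.783%). These shares over all genes are to be set beside the counts of each list below. The BaP and DMBA arrays did not overlap for any of the 261, and 16.9% of all genes had arrays that did not overlap. The median size of the difference was 0.572 among called genes and 0.0832 among all genes. At least 1.5-fold differences were called for 49 higher and 75 lower genes, 0.693% of those tested. At least 2-fold differences were called for 5 higher and 24 lower genes.

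The balance of the calls depended on the scaling. With each array scaled to its median instead of quantile normalized, 53 genes (0.296%) were called higher and 2019 (11.3%) lower, 11.6% together, and the median difference of genes above the median level was -0.29 instead of 0.01. Under that scaling 139 of the 140 lower calls and 24 of the 121 higher calls were kept. That shift lowers bright genes as a whole, so the kept counts do not show that lower calls are firmer than higher ones. The counts of each list under median scaling are given below and carry the same shift. Without DMBA replicate 3 the counts were 325 higher (1.82%) and 449 lower (2.51%), 4.33% together, and all 261 calls were kept. Leaving out DMBA replicate 2 gave 33 higher and 52 lower calls, and leaving out BaP replicate 1, 2 or 3 gave 36 and 50, 40 and 50, or 29 and 48.

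**Figure D1:**
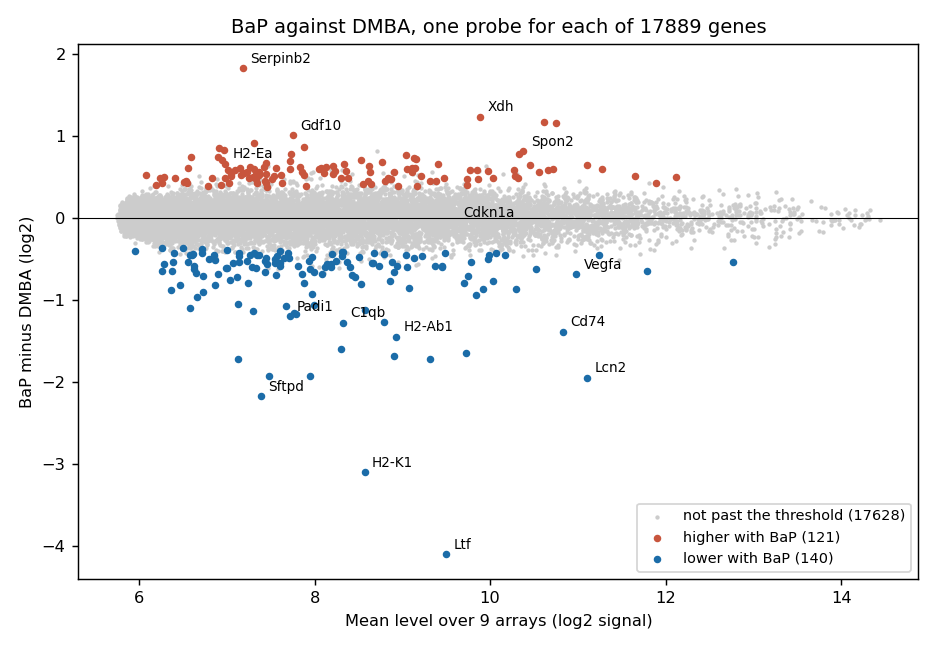
Difference between the BaP and DMBA group means (log2) against the mean level over 9 arrays (log2 signal), a point for each of 17889 genes. Coloured points are the 121 genes called higher and the 140 called lower with BaP. The lower side reaches -4.11 (Ltf), whereas the higher side ends at 1.83 (Serpinb2).

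The largest difference was in Ltf, which encodes lactoferrin, an iron-binding antimicrobial protein of epithelial secretions. Its level was 10.86, 10.73 and 10.99 on the DMBA arrays and 6.64, 6.83 and 6.79 on the BaP arrays, with acetone at 10.98, 10.85 and 10.81. The BaP arrays lay far below the other 6, whose values overlapped. The difference was -4.11 (SE 0.10, adjusted p = 7.83e-10), a 17.2-fold lower signal with BaP. The deposited tables used here hold no detection p-values, and an offset of 50 was added to each signal, which makes folds of dim probes smaller. The difference of Ltf ran from -4.63 with an offset of 16 to -2.20 with the mean of its probes, whose other probe had a mean level of 6.14 and differed by -0.30. Ltf passed the threshold in all 17 alternative analyses, with adjusted p between 3.48e-22 and 1.91e-06.

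Some other antimicrobial genes were lower too. Lcn2, whose product binds bacterial iron carriers, read 11.82, 11.80 and 12.02 with DMBA and 10.02, 9.92 and 9.85 with BaP, against 11.51, 11.47 and 11.54 with acetone. All 3 BaP arrays were below all acetone arrays, and all 3 DMBA arrays were above them. The difference was -1.95 (SE 0.09, adjusted p = 5.51e-07). Sftpd, which encodes the lectin surfactant protein D, read 8.28, 8.22 and 8.28 with DMBA and 5.89, 6.08 and 6.29 with BaP. The difference was -2.17 (SE 0.10, adjusted p = 5.51e-07). The BaP arrays of Sftpd lay below the median level of tested probes, 6.43, and the difference ran from -3.02 with an offset of 16 to -1.66 with the deposited log2 values, so its size is uncertain while its direction was the same. Pglyrp1, a peptidoglycan recognition protein, differed by -1.93 (adjusted p = 1.82e-06). Wfdc2, a secreted protein of the whey acidic protein family, differed by -1.92 (adjusted p = 5.51e-07). S100a8, a calcium-binding protein abundant in neutrophils, read 7.37, 7.46 and 7.10 with DMBA, 6.49, 6.19 and 5.93 with BaP and 6.28, 6.16 and 6.19 with acetone. Its DMBA arrays stood above all 6 others, and the difference was -1.10 (SE 0.14, adjusted p = 0.00228).

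The list of secreted antimicrobial and epithelial defence genes had 32 measured members, of which 6 were lower and 1 was higher with BaP. Its median difference was -0.10, against 0.01 over all genes, and 25 members did not pass. With median scaling 0 were higher and 7 lower. The 1 higher member was Camp, the cathelicidin precursor, at 0.40 (adjusted p = 0.0407). The call for Camp was lost without any 1 of the arrays other than DMBA replicate 3, with adjusted p between 0.0882 and 0.183, and with median scaling (difference 0.15). With DMBA replicate 3 left out, 1 member was higher and 7 were lower.

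Several lower genes also belong to a list of genes that oestrogen induces in the mouse uterus, a list that overlaps the antimicrobial one in Ltf and Lcn2. Of its 30 measured members 5 were lower and 0 higher, with a median of -0.04. Sprr2f, a small proline-rich protein of epithelial envelopes, read 7.89, 7.63 and 7.45 with DMBA and 5.92, 6.05 and 5.85 with BaP, with acetone at 7.61, 7.97 and 7.73. The DMBA and acetone arrays overlapped, and the BaP arrays were lower, by 1.72 (SE 0.11, adjusted p = 1.26e-05). The Sprr2f difference ran from -2.62 with an offset of 16 to -1.23 with the deposited log2 values. Padi1, an enzyme that converts arginine in proteins to citrulline, behaved differently: it read 9.22, 9.16 and 9.36 with acetone, 7.49, 7.39 and 7.76 with DMBA and 6.35, 6.29 and 6.42 with BaP. The 3 groups were fully separated, with BaP the lowest. The BaP level was below the DMBA level by 1.20 on the log2 scale (SE 0.10, adjusted p = 0.000121). The fifth member called was Gjb2, a gap junction protein, at -0.52 (adjusted p = 0.0279), named after its value was seen. The list had 1 higher and 6 lower members without DMBA replicate 3.

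**Figure D2:**
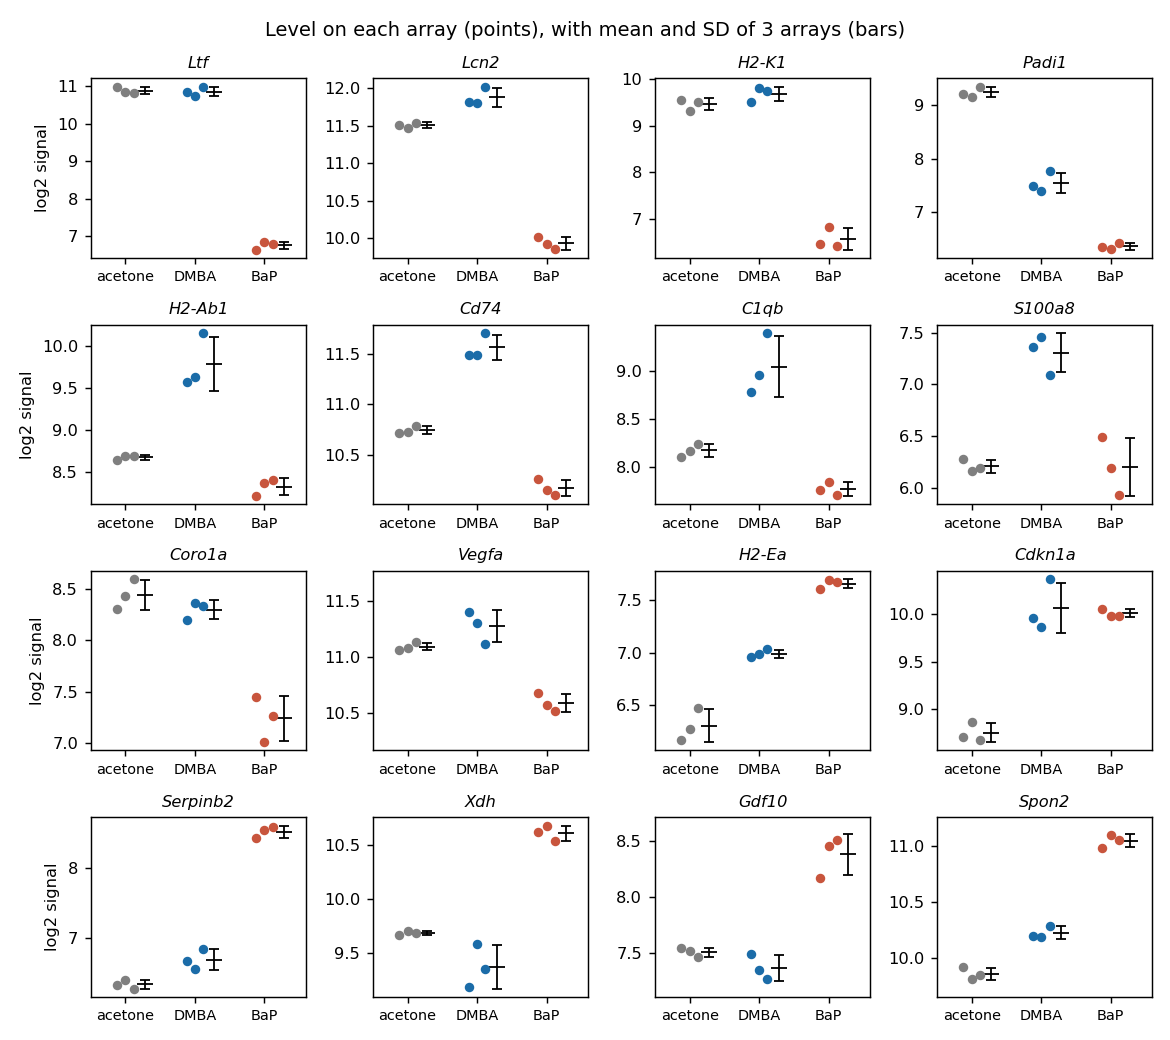
Level on each array (log2 signal, points) for 16 genes, with the mean and SD of the 3 arrays of each group beside them (bars). In Ltf and H2-K1 the DMBA arrays lie near the acetone arrays and the BaP arrays lie far below, in H2-Ab1 and Cd74 the DMBA arrays lie above acetone, and in Cdkn1a both compounds lie near 10 while acetone lies near 8.75.

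Some antigen-presentation genes were among the lower genes. MHC class I molecules display peptides from inside the cell to T cells, with beta-2-microglobulin (B2m) as their light chain. MHC class II molecules, with the invariant chain Cd74, display peptides from taken-up material on antigen-presenting cells. The MHC genes have near-identical copies, so a probe may also read related genes. H2-K1, H2-Eb1 and H2-Ea had no second probe to compare. Whether sequence differences between the mice changed the signal of a probe was not tested.

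Promoter windows are shown for the called members of the class I and peptide-loading list, the heavy chain genes H2-K1 and H2-T23 and the light chain gene B2m. The class II gene H2-Eb1 is shown too, because promoters of both classes are known to share a Y box that the factor NFY binds. The windows were matched by symbol and come from RefSeq (build GRCm38.p6). Each runs from 250 bases before to 50 after the gene's start, read 5′ to 3′ on the gene's strand, with matches to the motifs in capitals. The Y box was searched as CTGATTGG and the interferon element as GAAA, any 2 bases and GAAA again, on both strands, and the motifs were chosen after the gene values were seen.
H2-K1, chr17:34000298-34000597, minus strand: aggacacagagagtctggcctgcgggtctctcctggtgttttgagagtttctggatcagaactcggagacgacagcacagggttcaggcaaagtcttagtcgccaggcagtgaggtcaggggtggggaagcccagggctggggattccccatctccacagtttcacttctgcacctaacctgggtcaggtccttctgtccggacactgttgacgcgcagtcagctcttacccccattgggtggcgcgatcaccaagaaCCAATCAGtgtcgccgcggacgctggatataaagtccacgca
H2-T23, chr17:36032652-36032951, minus strand: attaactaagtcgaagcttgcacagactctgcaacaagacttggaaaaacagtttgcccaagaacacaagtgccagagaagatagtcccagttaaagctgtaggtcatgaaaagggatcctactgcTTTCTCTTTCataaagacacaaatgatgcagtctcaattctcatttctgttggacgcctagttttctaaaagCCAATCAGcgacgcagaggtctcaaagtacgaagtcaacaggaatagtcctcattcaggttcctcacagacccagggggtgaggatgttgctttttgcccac
B2m, chr2:122147437-122147736, plus strand: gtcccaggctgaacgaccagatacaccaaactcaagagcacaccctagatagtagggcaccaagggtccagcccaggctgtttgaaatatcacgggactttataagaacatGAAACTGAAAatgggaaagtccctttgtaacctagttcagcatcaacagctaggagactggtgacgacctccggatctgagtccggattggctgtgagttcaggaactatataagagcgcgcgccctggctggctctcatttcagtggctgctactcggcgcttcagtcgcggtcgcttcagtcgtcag
H2-Eb1, chr17:34305617-34305916, plus strand: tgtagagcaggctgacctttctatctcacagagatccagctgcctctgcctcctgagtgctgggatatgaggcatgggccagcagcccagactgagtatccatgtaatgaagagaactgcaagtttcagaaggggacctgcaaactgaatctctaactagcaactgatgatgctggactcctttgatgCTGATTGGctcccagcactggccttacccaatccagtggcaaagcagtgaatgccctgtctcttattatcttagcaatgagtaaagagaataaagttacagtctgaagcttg

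The Y box was found in the windows of H2-K1, H2-T23 and H2-Eb1, and the interferon element in those of H2-T23 and B2m. Only exact matches were counted, so a window without a match may still hold a variant of the motif. The Y box of H2-K1 lay after the gene's annotated start, and those of H2-T23 and H2-Eb1 lay before it. The starts were taken from RefSeq and not tested, so these positions do not show whether a Y box is transcribed. The Y box was present in 30.0% of the 20 class I and peptide-loading genes with a window, in 30.0% of 10 class II genes and in 5.53% of all 13684 genes with a window. It was in 4.85% of the lower and 5.49% of the higher genes. The interferon element was in 8.74% of the lower genes, 3.30% of the higher genes and 4.07% of all. GCGTG, the core that the aryl hydrocarbon receptor binds, was in 38.8% of the lower, 44.0% of the higher and 44.4% of all genes. A match describes these letters in the window and does not show a site in use.

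H2-K1 is a class I heavy chain gene. Its level was 9.51, 9.80 and 9.74 with DMBA and 6.46, 6.84 and 6.43 with BaP, with acetone at 9.55, 9.31 and 9.50. The acetone and DMBA arrays overlapped, and all BaP arrays lay far below. The difference was -3.11 (SE 0.12, adjusted p = 1.50e-07), an 8.61-fold lower signal with BaP. The H2-K1 difference ran from -3.69 with an offset of 16 to -2.69 with the deposited log2 values. H2-T23, a class I-like molecule recognised by natural killer cells, read 9.87, 9.98 and 10.52 with DMBA and 8.49, 8.51 and 8.22 with BaP, against 9.50, 9.20 and 9.57 with acetone. Its groups did not overlap, and the difference was -1.72 (SE 0.15, adjusted p = 0.000137). B2m read 13.08, 13.09 and 12.82 with DMBA and 12.53, 12.37 and 12.48 with BaP, a difference of -0.54 (SE 0.10, adjusted p = 0.0182). The call for B2m was lost without DMBA replicate 2 or any 1 BaP array (adjusted p 0.0742 to 0.141). Of 28 measured class I and peptide-loading genes, 3 were lower and 0 higher, with a median of -0.11, and with median scaling 14 were lower (median -0.40). Leaving out DMBA replicate 1 or 3 gave 5 lower members of the list. H2-Q5, a class I gene outside the list, was also called, and was named after the calls were seen. Its call was kept under every alternative analysis other than that limited to brighter genes.

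Among 14 measured class II genes, 5 were lower with BaP and 1 was higher, and the median was -0.28. H2-Ab1, the class II A beta chain, read 9.57, 9.63 and 10.15 with DMBA, 8.22, 8.37 and 8.41 with BaP and 8.65, 8.69 and 8.69 with acetone. DMBA lay above acetone and BaP below it, with no overlap, and the difference was -1.45 (SE 0.14, adjusted p = 0.000227). Cd74 had the same order, at 11.49, 11.49 and 11.71 with DMBA, 10.71, 10.73 and 10.79 with acetone and 10.26, 10.15 and 10.11 with BaP, a difference of -1.39 (SE 0.09, adjusted p = 1.27e-05). H2-Eb1, the E beta chain, differed by -1.17 (SE 0.16, adjusted p = 0.00319), and from acetone by -0.16 with BaP and 1.01 with DMBA. DMBA replicate 3 was the highest array for H2-Ab1, Cd74 and H2-Eb1, and without it the list still had 5 lower and 1 higher member. Without DMBA replicate 2 or BaP replicate 3, 3 members were lower.

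H2-Ea, the E alpha chain and partner of the E beta chain, went the other way. It read 6.17, 6.27 and 6.48 with acetone, 6.95, 6.98 and 7.03 with DMBA and 7.60, 7.68 and 7.67 with BaP. The 3 groups were fully separated, with BaP the highest. The difference was 0.66 (SE 0.08, adjusted p = 0.00159), and with median scaling it was 0.36 and still passed.

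Of 29 measured macrophage and monocyte markers 10 were lower with BaP and 0 higher, and 19 did not pass. The median was -0.36 against 0.01 for all genes, and with median scaling 17 were lower (median -0.58). Members that did not pass included the integrin gene Itgam at -0.01, the mannose receptor gene Mrc1 at -0.01 and the leukocyte phosphatase gene Ptprc at -0.08, named after their values were seen. The mean level over the 29 markers was 7.60 to 7.69 on the DMBA arrays, 7.28 to 7.32 on the BaP arrays and 7.57 to 7.61 on the acetone arrays, so BaP lay below both other groups. Leaving out DMBA replicate 3 gave 14 lower markers. Without DMBA replicate 2, BaP replicate 1 or BaP replicate 2, 4 were lower, and without BaP replicate 3, 6 were.

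Coro1a, an actin-binding protein of blood cells, read 8.20, 8.37 and 8.34 with DMBA, 7.44, 7.01 and 7.26 with BaP and 8.30, 8.43 and 8.60 with acetone. Its DMBA and acetone arrays overlapped and its BaP arrays were lower, by 1.06 (SE 0.11, adjusted p = 0.000579). Cd52, a small surface glycoprotein of leukocytes, differed by -0.92 (SE 0.09, adjusted p = 0.000227). Aif1, a calcium-binding protein of macrophages, differed by -0.79 (SE 0.09, adjusted p = 0.000661). The fractalkine receptor Cx3cr1 differed by -0.71 (SE 0.10, adjusted p = 0.00495), a call lost without BaP replicate 1 (adjusted p = 0.0520). The other 6 called markers differed by -0.43 to -0.77. Galectin-3 (Lgals3), a sugar-binding protein abundant in macrophages and epithelia, had among the smallest SEs: it read 10.79, 10.82 and 10.74 with DMBA and 9.94, 9.88 and 9.95 with BaP, a difference of -0.86 (SE 0.08, adjusted p = 0.000203). Its acetone arrays, at 10.22, 10.17 and 10.15, lay between.

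The subunits of complement C1q, which macrophages make, were lower. C1qb read 8.78, 8.96 and 9.40 with DMBA, 7.76, 7.84 and 7.70 with BaP and 8.10, 8.16 and 8.24 with acetone, a difference of -1.28 (SE 0.14, adjusted p = 0.000579). The groups did not overlap, and DMBA replicate 3 was the highest array. C1qc differed by -1.13 (SE 0.10, adjusted p = 0.000121). C1qa differed by -0.60 (SE 0.11, adjusted p = 0.0175), a call lost without any 1 BaP array (adjusted p 0.0560 to 0.142) and with the deposited log2 values. These 3 were the lower members among 26 measured complement genes, whose median was -0.05, and 0 were higher. With median scaling 5 were lower. Leaving out DMBA replicate 3 gave 6 lower complement genes.

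Among 40 measured chemokines and receptors, 4 were lower and 2 higher with BaP, with a median of 0.02. With median scaling 0 were higher and 8 lower. Ccl5, which attracts T cells and monocytes, read 7.70, 7.63 and 7.65 with DMBA and 6.74, 6.56 and 6.55 with BaP, a difference of -1.04 (SE 0.09, adjusted p = 9.55e-05). Its acetone arrays ran from 6.93 to 7.37, between the compounds. Cxcl12, a chemokine of stromal cells, went the other way, at 10.23, 10.04 and 9.88 with DMBA and 10.86, 10.73 and 10.90 with BaP. The difference was 0.78 (SE 0.10, adjusted p = 0.00289), and the call was lost with median scaling (difference 0.44) and with the mean of its probes. Cxcl1, a neutrophil attractant, differed by 0.60 (SE 0.08, adjusted p = 0.00308), and its call was lost with median scaling. The counts were 3 higher and 6 lower without DMBA replicate 3. Without any 1 of the BaP arrays, 2 were higher and 2 lower.

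Of 36 measured interferon response genes 2 were lower and 1 higher, with a median of -0.05. With median scaling 11 were lower and 0 higher (median -0.30), so the counts of this list depended on the scaling. Ifi47, an interferon-induced GTPase, read 8.06, 7.86 and 7.22 with DMBA and 6.61, 6.43 and 6.70 with BaP, a difference of -1.13 (SE 0.17, adjusted p = 0.00720). DMBA replicate 3 was its lowest DMBA array. The call was lost without DMBA replicate 2 or any 1 BaP array (adjusted p 0.0587 to 0.0863) and with the deposited log2 values. Igtp, a related GTPase, differed by -0.55 (adjusted p = 0.0185), a call lost without any 1 BaP array (adjusted p 0.0613 to 0.128). From acetone, Igtp differed by -0.04 with BaP and 0.52 with DMBA. Ifitm1, a membrane protein that limits virus entry, differed by 0.46 (adjusted p = 0.0434), a call lost without DMBA replicate 1 or 2 or BaP replicate 1 or 3 (adjusted p 0.0605 to 0.221). The Ifitm1 call was also lost under 9 other settings (adjusted p up to 0.51), among them median scaling (difference 0.12) and the deposited log2 values. The counts were 1 higher and 5 lower without DMBA replicate 3, 0 higher and 1 lower without DMBA replicate 2, and 1 higher and 0 lower without BaP replicate 2, and none was called without BaP replicate 1 or 3.

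Cpa3 and Mcpt4, products of mast cell granules, were higher with BaP. Cpa3, carboxypeptidase A of mast cell granules, read 6.79, 6.50 and 6.31 with DMBA, 7.33, 7.11 and 7.29 with BaP and 7.08, 7.19 and 6.95 with acetone. DMBA was the lowest group, and BaP overlapped acetone. The difference was 0.71 (SE 0.12, adjusted p = 0.0119). Mcpt4, a mast cell protease, differed by 0.49 (SE 0.09, adjusted p = 0.0149). The call for Cpa3 was lost without DMBA replicate 2 or any 1 BaP array (adjusted p 0.0541 to 0.112), and that for Mcpt4 without DMBA replicate 2 or BaP replicate 1 or 3 (adjusted p 0.0693 to 0.113). Of 14 measured granulocyte and mast cell genes 3 were higher and 1 lower, the other called members being Camp and S100a8. Other mast cell members did not pass: Cma1 differed by 0.37 (adjusted p = 0.212), Tpsb2 by 0.25 (adjusted p = 0.324), Tpsab1 by 0.24 (adjusted p = 0.281) and Fcer1a by 0.13 (adjusted p = 0.699), all named after their values were seen. With median scaling 1 member of the list was higher and 2 were lower, and the call for Cpa3 was lost. With DMBA replicate 3 left out, 4 were higher and 1 was lower. The counts were 0 higher and 1 lower without DMBA replicate 2, BaP replicate 1 or BaP replicate 3, and 1 and 1 without BaP replicate 2. Of 15 measured lymphocyte markers 0 were called by limma, with a median of -0.08, and the list's median level stood at percentile 33.5 of all genes. Over all genes, 2095 had an unadjusted p under 0.05, 11.7% of those tested.

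Of 38 measured genes of the hypoxia response and glycolysis 7 were lower with BaP and 0 higher, and 31 did not pass. The median was -0.20, and with median scaling 20 were lower (median -0.48). Vegfa, which drives vessel growth, read 11.40, 11.30 and 11.11 with DMBA, 10.68, 10.57 and 10.52 with BaP and 11.06, 11.08 and 11.13 with acetone. BaP lay below both other groups, which overlapped, and the difference was -0.69 (SE 0.10, adjusted p = 0.00447). Ndrg1, a stress-responsive cytoplasmic protein, differed by -0.70 (adjusted p = 0.0106). Adm, the vasodilator adrenomedullin, differed by -0.62 (adjusted p = 0.00683), and Eno2, a glycolytic enolase, by -0.59 (adjusted p = 0.00812). The calls for Ndrg1 and Eno2 were lost without DMBA replicate 2 or any 1 BaP array, with adjusted p up to 0.109, and that for Adm without BaP replicate 1 or 3, with adjusted p up to 0.0644. Gapdh, a glycolytic enzyme often used as a reference gene, differed by -0.36 (95% interval -0.53 to -0.19, adjusted p = 0.0514). In the fit without DMBA replicate 3, 12 members of the list were lower. Without DMBA replicate 2, BaP replicate 1 or BaP replicate 2, 2 were lower, and without BaP replicate 3, 1 was.

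**Figure D3:**
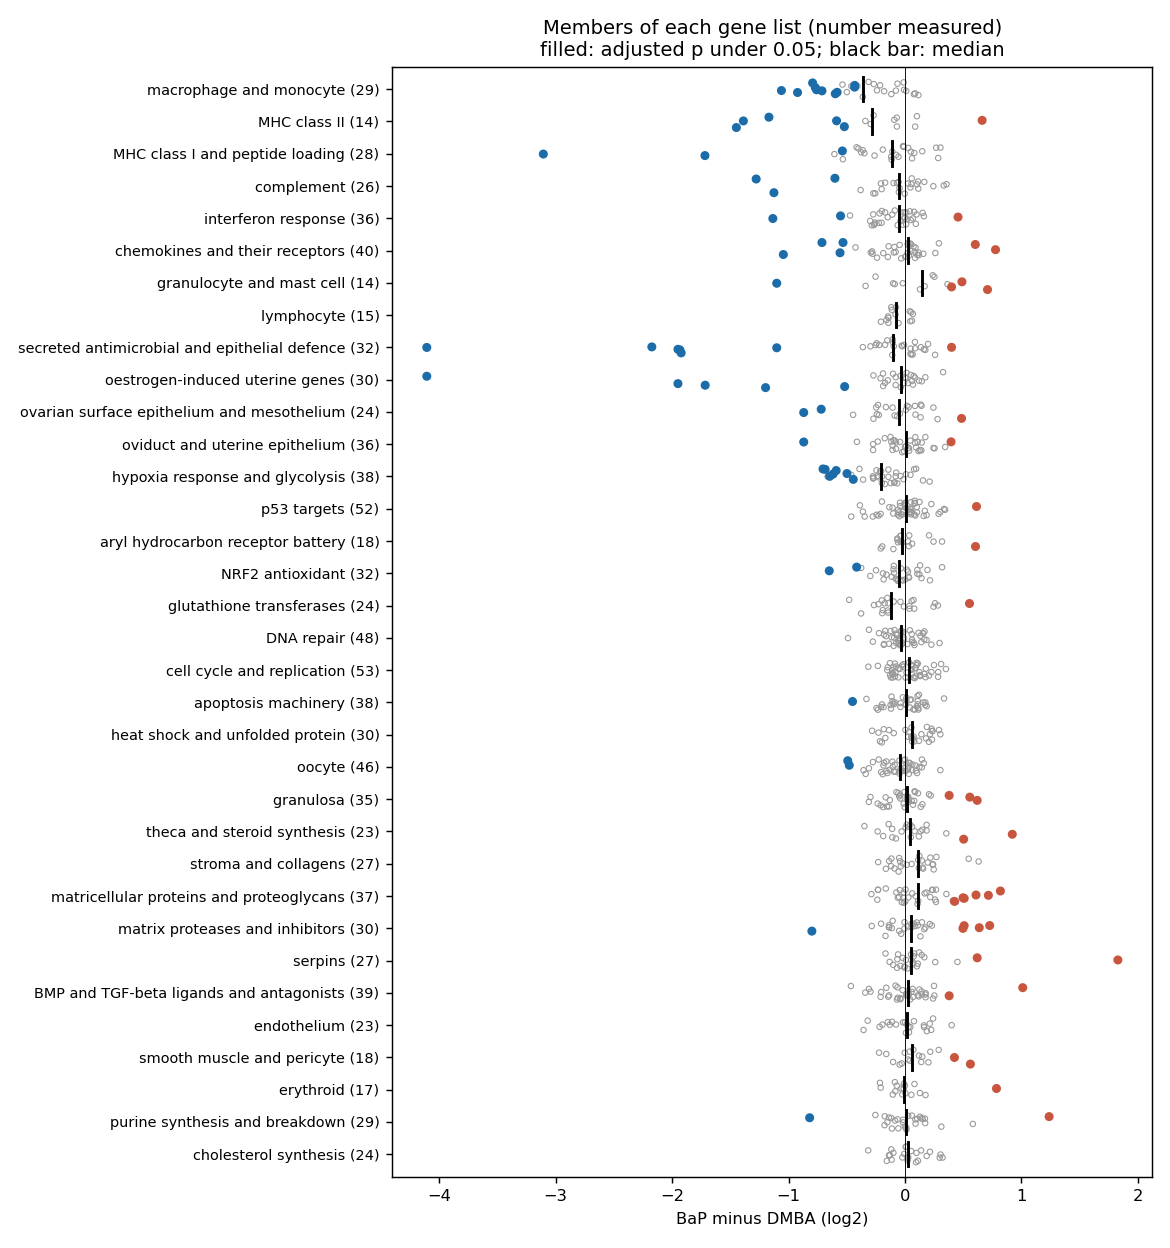
Difference between BaP and DMBA (log2) of each measured member of 34 gene lists, with the number measured beside each name. Filled points passed an adjusted p of 0.05 and black bars mark list medians: the macrophage list has 10 lower members and a median of -0.36, the matricellular list 6 higher members and a median of 0.11 (1 higher and 3 lower with median scaling), and the cell cycle and DNA repair lists no filled point.

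Among genes higher with BaP, Serpinb2 led. It encodes an inhibitor of plasminogen activators, and read 6.67, 6.55 and 6.85 with DMBA, 8.42, 8.55 and 8.59 with BaP and 6.34, 6.40 and 6.28 with acetone. The BaP arrays lay far above the other 6. The difference was 1.83 (SE 0.10, adjusted p = 1.48e-06), a 3.55-fold higher signal, and 1.46 with median scaling. Serpine2, a related inhibitor made by granulosa cells, differed by 0.62 (adjusted p = 0.00895), a call lost without DMBA replicate 2 or BaP replicate 1 or 3 (adjusted p 0.0651 to 0.0691) and with median scaling. Both were called among 27 measured serpins, with 0 lower and a median of 0.05. Leaving out DMBA replicate 3 gave 4 higher serpins, and leaving out DMBA replicate 2, BaP replicate 1 or BaP replicate 3 gave 1. Plau, the urokinase that these inhibitors act on, read 9.31, 8.80 and 9.06 with DMBA and 9.83, 9.88 and 9.65 with BaP, a difference of 0.73 (SE 0.12, adjusted p = 0.0125). The call for Plau was lost without DMBA replicate 2 or any 1 BaP array (adjusted p 0.0585 to 0.122) and with median scaling (difference 0.35).

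Enzymes at the end of purine breakdown moved in opposite directions. Xdh, xanthine dehydrogenase, which makes uric acid, read 9.18, 9.58 and 9.35 with DMBA, 10.62, 10.67 and 10.53 with BaP and 9.66, 9.70 and 9.68 with acetone, a difference of 1.24 (SE 0.11, adjusted p = 0.000121). Uox, urate oxidase, which degrades uric acid in mice, read 6.70, 6.74 and 6.76 with DMBA and 5.81, 5.90 and 6.04 with BaP, a difference of -0.82 (SE 0.09, adjusted p = 0.000579). The BaP arrays of Uox lay below the median level of tested probes, 6.43. The Uox difference ran from -1.47 with an offset of 16 to -0.40 with the mean of its probes. Its other probe, at a mean level of 6.05, differed by 0.02. The compounds did not overlap for either gene. These were the only called members of 29 measured purine genes, whose median was 0.01. With median scaling 1 was higher and 6 were lower.

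Of 37 measured genes for matricellular proteins and proteoglycans 6 were higher with BaP and 0 lower, and 31 did not pass. The median was 0.11, and with median scaling 1 was higher and 3 were lower. Spon2, a secreted matrix protein, read 10.20, 10.19 and 10.29 with DMBA, 10.99, 11.10 and 11.06 with BaP and 9.92, 9.81 and 9.85 with acetone. The groups did not overlap, and the difference was 0.82 (SE 0.08, adjusted p = 0.000362), or 0.50 with median scaling. Lox, which cross-links collagen, read 9.02, 9.08 and 8.84 with DMBA and 9.59, 9.76 and 9.75 with BaP, a difference of 0.72 (SE 0.09, adjusted p = 0.00295). Tenascin C (Tnc) differed by 0.61 (adjusted p = 0.00714) and fibulin 2 (Fbln2) by 0.51 (adjusted p = 0.0179). From acetone, Tnc differed by 0.03 with BaP and -0.58 with DMBA, and Fbln2 by 1.01 with BaP and 0.50 with DMBA. The call for Tnc was lost without DMBA replicate 2 or BaP replicate 2 or 3 (adjusted p 0.0572 to 0.0672), and that for Fbln2 without DMBA replicate 2 or any 1 BaP array (adjusted p 0.0533 to 0.135). With median scaling the calls for Lox, Tnc and Fbln2 were lost, so the direction of the list did not hold under that scaling. In the fit without DMBA replicate 3 the list had 9 higher and 1 lower member. Without DMBA replicate 2, BaP replicate 2 or BaP replicate 3 it had 2 higher members, and without BaP replicate 1 it had 3.

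Of 30 measured matrix proteases and inhibitors, 4 were higher and 1 lower, with a median of 0.06, and with median scaling 1 was higher and 2 were lower. Cathepsin K (Ctsk), a collagen-degrading protease, differed by 0.64 (SE 0.08, adjusted p = 0.00289). The inhibitor Timp1 differed by 0.51 (SE 0.08, adjusted p = 0.00969). Adamts4, which cleaves aggrecan, differed by -0.80 (SE 0.13, adjusted p = 0.00969). The calls for Ctsk and Timp1 were lost with median scaling. Those for Timp1 and Adamts4 were lost without DMBA replicate 2 or any 1 BaP array (adjusted p up to 0.101). With DMBA replicate 3 left out, 4 were higher and 2 lower, without DMBA replicate 2, 2 were higher and 0 lower, and without any 1 BaP array 1 was higher and 0 were lower. Of 27 measured stromal and collagen genes 0 were called by limma, with a median of 0.11, and with median scaling 3 were lower (median -0.12).

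Other genes among the 15 largest increases had varied roles. Gdf10, a BMP-family ligand, read 7.49, 7.35 and 7.26 with DMBA and 8.17, 8.46 and 8.51 with BaP, a difference of 1.01 (SE 0.11, adjusted p = 0.000579). Akr1c18, which inactivates progesterone, read 7.06, 6.77 and 6.96 with DMBA and 7.86, 7.73 and 7.96 with BaP, a difference of 0.92 (SE 0.10, adjusted p = 0.000703). Acetone lay at 7.08 to 7.22 for Akr1c18, between the compounds. Alas2, the haem synthesis enzyme of red cell precursors, differed by 0.79 (adjusted p = 0.000851), with BaP above and DMBA below acetone. Mid1, a ubiquitin ligase bound to microtubules, had the same order and differed by 0.87 (adjusted p = 0.000222), but its call was lost with the mean of its probes. The small GTPase gene Rnd3 differed by 0.75 (adjusted p = 0.00159) and the zinc finger gene Zfp870 by 0.75 (adjusted p = 0.000771). The beta-defensin gene Defb48, which is not in the antimicrobial list, differed by 0.83 (adjusted p = 0.00683). Rgl1, an exchange factor for Ral GTPases, differed by 0.77 (adjusted p = 0.00916). The calls for Defb48 and Rgl1 were lost with median scaling. The call for Defb48 was also lost without BaP replicate 1 or 2 (adjusted p up to 0.0699), and that for Rgl1 without DMBA replicate 2 or any 1 BaP array (adjusted p 0.0509 to 0.0947). The genes at least 2-fold higher were Serpinb2, Xdh, Gdf10 and 2 transcripts with no current gene symbol, deposited as BC099439 and OTTMUSG00000025408, which were named after their values were seen.

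The remaining genes among the 15 largest decreases were Prcp, Rpusd4 and Csrp1. Prcp, a lysosomal carboxypeptidase that inactivates angiotensin peptides, read 9.61, 9.27 and 9.08 with DMBA, 7.55, 7.64 and 7.71 with BaP and 9.73, 9.84 and 9.76 with acetone, a difference of -1.68 (SE 0.12, adjusted p = 2.84e-05). BaP was far below both other groups. Rpusd4, which modifies mitochondrial RNA, differed by -1.60 (adjusted p = 8.13e-05), and Csrp1, a LIM-domain protein of the actin cytoskeleton, by -1.27 (adjusted p = 0.000151).

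**Figure D4:**
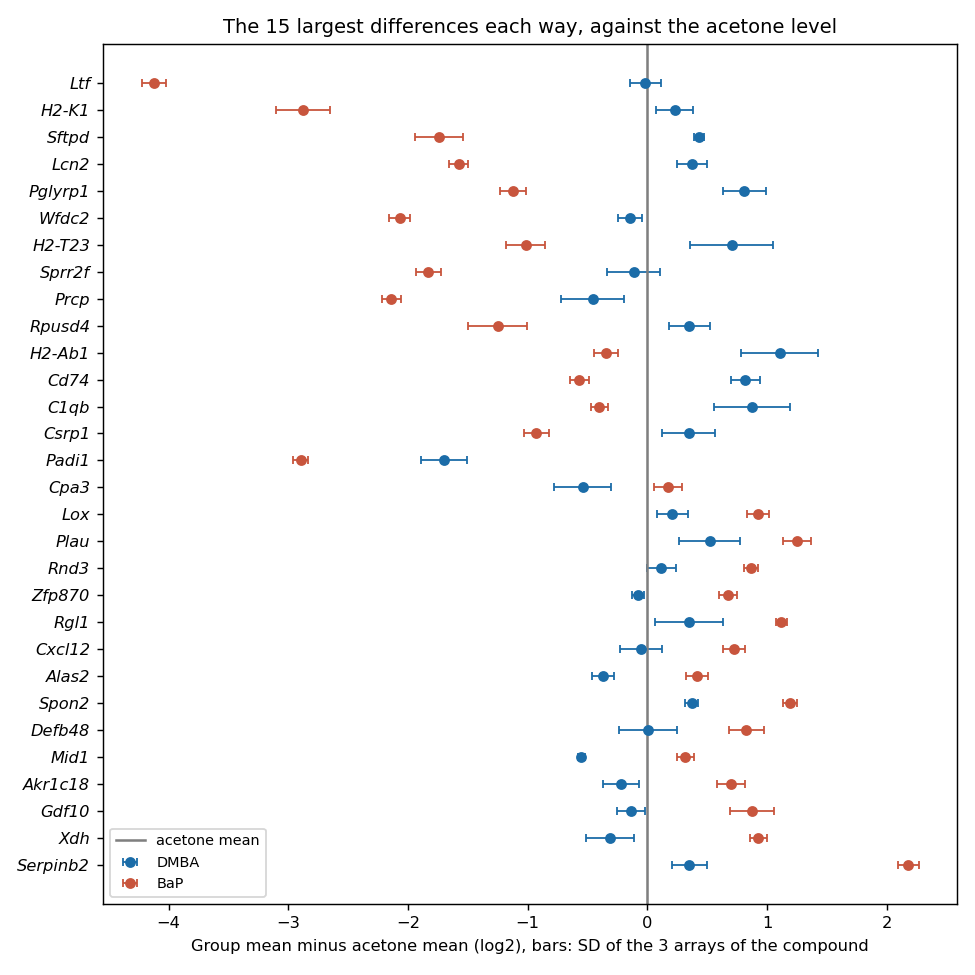
Mean level with each compound minus the acetone mean (log2) for the 15 largest increases and 15 largest decreases, with bars for the SD of the 3 arrays of the compound. For Ltf, H2-K1 and Wfdc2 the DMBA mean lies near 0 and the BaP mean between -4.13 and -2.07, whereas for H2-Ab1 and Cd74 DMBA lies above 0 (1.10 and 0.82) and BaP below it (-0.34 and -0.57).

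The acetone level placed most called genes nearer to DMBA than to BaP. Among the 261 called genes the acetone mean was nearer the DMBA mean in 208, or 79.7%, against 57.3% of all genes. The share was 80.2% for the higher genes and 79.3% for the lower ones. Against acetone, BaP had 1891 called genes (10.6%), 842 higher (4.71%) and 1049 lower (5.86%), and DMBA had 186 (1.04%), 128 higher (0.716%) and 58 lower (0.324%). A change of similar size did not get a similar p in both fits. Cdkn1a differed from acetone by 1.26 with BaP (adjusted p = 4.69e-11 in limma) and by 1.32 with DMBA (adjusted p = 0.00123). The counts alone therefore do not compare the sizes of the effects. Values against acetone are given side by side, since those comparisons share the acetone arrays. Ltf differed from acetone by -4.13 with BaP and -0.02 with DMBA, and Serpinb2 by 2.18 with BaP and 0.35 with DMBA. H2-Ab1 differed from acetone by -0.34 with BaP and 1.10 with DMBA, and C1qb by -0.40 and 0.88. S100a8 differed from acetone by -0.01 with BaP and 1.10 with DMBA. For the last 3, DMBA lay farther from acetone than BaP did.

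The p53 target Cdkn1a, which halts the cell cycle, was high with both compounds. It read 9.97, 9.87 and 10.37 with DMBA, 10.06, 9.99 and 9.99 with BaP and 8.71, 8.86 and 8.67 with acetone. The compounds overlapped, with a difference of -0.06 (95% interval -0.32 to 0.21, adjusted p = 0.910). Mdm2, the negative regulator of p53, differed by 0.01 (95% interval -0.17 to 0.20, adjusted p = 0.982). Bax, a mediator of apoptosis, differed by -0.24 (95% interval -0.54 to 0.06, adjusted p = 0.556). Of 52 measured p53 targets 1 was higher and 0 were lower (1.92% called, against 1.46% of all genes), with a median of 0.01. With median scaling 1 was higher and 10 were lower (median -0.30), so the counts depended on the scaling. The member called was the cyclin-like gene Ccng2 at 0.61 (adjusted p = 0.00779), named after its value was seen. The counts were 3 higher and 1 lower without DMBA replicate 3, and 0 and 0 without DMBA replicate 2, BaP replicate 1 or BaP replicate 3. A miss of the threshold does not show that the compounds act alike, and these intervals bound the difference at the doses used.

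For enzymes that the aryl hydrocarbon receptor induces, 18 genes were measured, 1 was higher with BaP and 0 were lower, with a median of -0.03. The higher member was Ugt1a6a, a glucuronosyltransferase, at 7.51, 7.85 and 7.83 with DMBA, 8.14, 8.39 and 8.46 with BaP and 7.45, 6.94 and 6.93 with acetone. The compounds did not overlap, and the difference was 0.60 (SE 0.12, adjusted p = 0.0261). Genes of the Ugt1a cluster share exons, so the probe may read several of them. The call was lost without DMBA replicate 2 or any 1 BaP array (adjusted p 0.0533 to 0.190), with median scaling (difference 0.22) and with the deposited log2 values. Cyp1a1 differed by -0.04 (95% interval -0.24 to 0.16), and its mean level stood at percentile 12.4 of all genes. Cyp1b1, the related enzyme, differed by 0.06 (95% interval -0.24 to 0.37). Nqo1, a quinone reductase, read 6.72, 6.66 and 6.69 with DMBA and 7.03, 6.98 and 7.03 with BaP. Its groups did not overlap, and the difference of 0.32 (95% interval 0.15 to 0.49, adjusted p = 0.0868) missed the threshold. The receptor's repressor Ahrr differed by 0.25 (95% interval 0.04 to 0.45, adjusted p = 0.315).

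In the list of antioxidant genes that the factor NRF2 controls, 2 of 32 measured members were lower and 0 higher, with a median of -0.05. With median scaling 9 were lower (median -0.34). Gpx2, a glutathione peroxidase of epithelia, differed by -0.65 (SE 0.10, adjusted p = 0.00599), and Srxn1, which repairs peroxiredoxins, by -0.41 (SE 0.08, adjusted p = 0.0294). From acetone, Gpx2 differed by -0.165 with BaP and 0.485 with DMBA, and Srxn1 by -0.48 with BaP and -0.07 with DMBA. The call for Gpx2 was lost without BaP replicate 1 or 2 (adjusted p up to 0.0560), and that for Srxn1 without DMBA replicate 2 or any 1 BaP array (adjusted p 0.0714 to 0.168). There were 3 lower members without DMBA replicate 3, 1 without DMBA replicate 2 or BaP replicate 3, and none without BaP replicate 1 or 2. Glutathione transferases had 1 higher member, Mgst2 (0.55, adjusted p = 0.0172, named after its value was seen), among 24 measured, with a median of -0.12. The share called was 4.17%, against 1.46% of all genes. The count called was 0 without DMBA replicate 2 or any 1 BaP array, and 2 higher and 2 lower without DMBA replicate 3. With median scaling 0 were higher and 9 lower.

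Of 46 measured oocyte genes 2 were lower and 0 higher with BaP (4.35% called, against 1.46% of all genes), with a median of -0.04. With median scaling 11 were lower and 0 higher (median -0.19), so the counts depended on the scaling. Lhx8, a transcription factor of early oocytes, differed by -0.48 (SE 0.09, adjusted p = 0.0279), and Gja4, the gap junction protein of oocytes, by -0.49 (SE 0.11, adjusted p = 0.0468). The call for Lhx8 was lost without DMBA replicate 2 or any 1 BaP array (adjusted p 0.111 to 0.149), and that for Gja4 without any 1 of the arrays other than DMBA replicate 3 (adjusted p 0.0508 to 0.236). The Lhx8 call was also lost under 3 other settings (adjusted p up to 0.139) and that for Gja4 under 8 (adjusted p up to 0.174). Gdf9, an oocyte growth factor, read 12.61, 12.49 and 12.36 with DMBA and 12.36, 12.28 and 12.34 with BaP, a difference of -0.16 (95% interval -0.36 to 0.04). Its partner Bmp15 differed by -0.31 (95% interval -0.54 to -0.08, adjusted p = 0.231). The zona protein gene Zp3 differed by 0.06 (95% interval -0.24 to 0.37) and the germ cell helicase gene Ddx4 by 0.16 (95% interval -0.03 to 0.35). There were 3 lower oocyte genes without DMBA replicate 3, 1 without DMBA replicate 1 and none without any other single array.

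Among 35 measured granulosa genes 3 were higher and 0 lower, with a median of 0.02. With median scaling the direction of the count turned, to 0 higher and 6 lower (median -0.19). Besides Serpine2 these were Ptgis, prostacyclin synthase, at 0.56 (adjusted p = 0.00992) and Inhba, the activin subunit, at 0.38 (adjusted p = 0.0483). All 3 calls were lost with median scaling. The call for Ptgis was lost without DMBA replicate 2 or BaP replicate 1 or 3 (adjusted p 0.0755 to 0.0883), and that for Inhba without any 1 of the arrays other than DMBA replicate 3 (adjusted p 0.107 to 0.220). Foxl2, the granulosa identity factor, differed by 0.11 (95% interval -0.12 to 0.35) and Amh, the hormone of growing follicles, by 0.03 (95% interval -0.22 to 0.28). Of 23 measured theca and steroid genes 2 were higher, Akr1c18 and the glucocorticoid-activating enzyme gene Hsd11b1 (0.50, adjusted p = 0.0175), and with median scaling 1 was higher and 1 lower. The call for Hsd11b1 was lost without DMBA replicate 2 or any 1 BaP array (adjusted p 0.0576 to 0.113) and with median scaling. Star, which moves cholesterol into mitochondria, differed by 0.03 (95% interval -0.20 to 0.26).

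Called markers of surface and lining epithelium lay on both sides. Krt19, an epithelial keratin, read 10.03, 10.01 and 10.83 with DMBA and 9.54, 9.46 and 9.27 with BaP, a difference of -0.87 (SE 0.18, adjusted p = 0.0399). DMBA replicate 3 was far above the other DMBA arrays, and without it the difference was -0.60. Lgals2, a galectin of epithelia, differed by -0.72 (adjusted p = 0.0134), and Upk1b, a uroplakin of the ovarian surface, by 0.49 (adjusted p = 0.0263). All 3 calls were lost without DMBA replicate 2 or any 1 BaP array (adjusted p 0.0509 to 0.251). These made 2 lower and 1 higher of 24 surface epithelium and mesothelium genes, with a median of -0.05. With median scaling 0 were higher and 5 lower. The counts were 1 higher and 5 lower without DMBA replicate 3. Of 36 oviduct and uterine epithelium genes 1 was lower (Krt19) and 1 higher (Rsph1, a protein of cilia, 0.40, adjusted p = 0.0437, a call lost without any 1 of the arrays other than DMBA replicate 3, with adjusted p 0.0962 to 0.217), and with median scaling 4 were lower and 0 higher.

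Of 18 measured smooth muscle and pericyte genes 2 were higher, with a median of 0.06, and with median scaling 1 was higher and 1 lower. The muscle filament gene Des differed by 0.56 (SE 0.08, adjusted p = 0.00540), a call lost with median scaling. Rgs5, a pericyte regulator of G proteins, differed by 0.43 (adjusted p = 0.0443), a call lost without any 1 of the arrays other than DMBA replicate 3 (adjusted p 0.0588 to 0.231). By limma 0 members were called among 23 endothelial genes (median 0.02), 53 cell cycle and replication genes (0.04), 48 DNA repair genes (-0.04), 30 heat shock and unfolded protein genes (0.06) and 24 cholesterol synthesis genes (0.02). With median scaling these lists had 4, 8, 6, 3 and 4 lower members in that order, and 0 higher. Of 38 apoptosis genes 1 was lower (2.63%, against 1.46% of all genes called), Bik (-0.45, adjusted p = 0.0218, named after its value was seen). None was lower without DMBA replicate 2 or any 1 BaP array, and with median scaling 9 apoptosis genes were lower.

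The called genes with the smallest SEs, besides Lgals3, had small differences. The actin regulator Cyfip1 differed by -0.47 (SE 0.08, adjusted p = 0.0128), Arhgap30 by -0.39 (SE 0.08, adjusted p = 0.0300) and Asb2 by -0.36 (SE 0.08, adjusted p = 0.0497). The histone methyltransferase gene Kmt5b differed by 0.49 (SE 0.08, adjusted p = 0.00927). All 4 calls were lost without DMBA replicate 2 or BaP replicate 1 or 3, with adjusted p up to 0.220, and that for Kmt5b with median scaling (difference 0.09). The cytoskeletal reference gene Actb differed by 0.15 (95% interval -0.08 to 0.38).

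Other probes of the same genes gave a second reading on the same arrays. Of 39 called genes with another probe above the median level of 6.43, 53 such probes were measured. Of these 50 pointed the same way as the tested probe, 3 the other way, and 16 passed on their own over all 25649 probes, of which 289 (1.13%) passed, 130 higher (0.507%) and 159 lower (0.620%). The probes of H2-Ab1, Cd74, Vegfa and Timp1 with a level well above the median lay on the same side of 0. The 3 that pointed the other way belonged to Gipc1 and Kmt5b. Called genes also had 76 other probes at or below the median level, of which 49 pointed the same way and 1 passed.

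**Figure D5:**
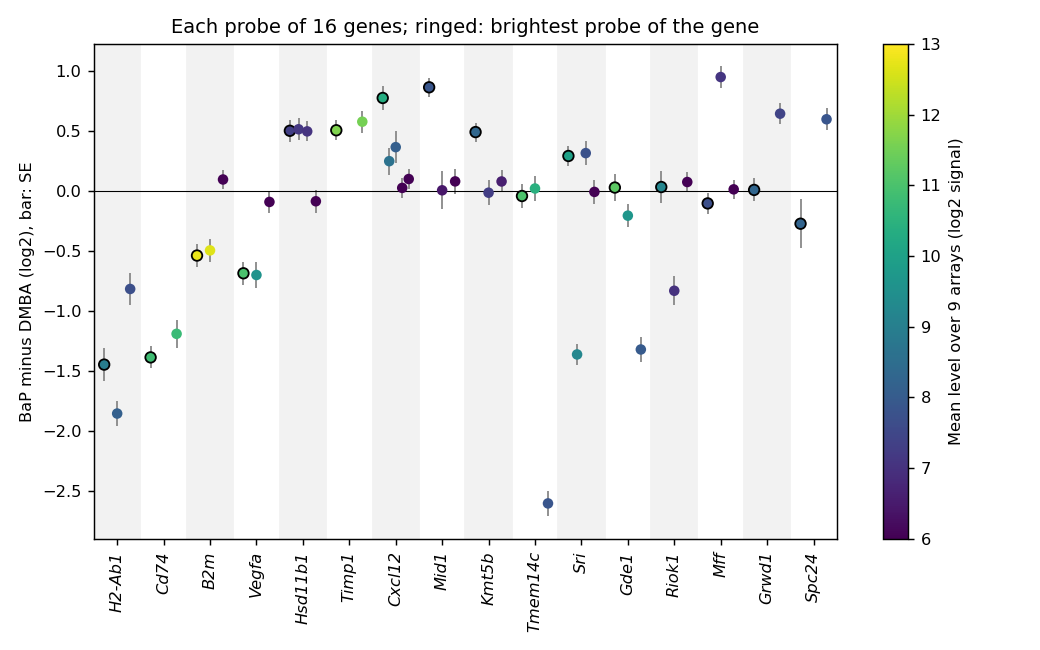
Difference between BaP and DMBA (log2, bars SE) for each probe of 16 genes, coloured by mean level (log2 signal), with a ring on the brightest probe, which stood for the gene. Probes of H2-Ab1, Cd74 and Hsd11b1 above the median level agree in sign, whereas Tmem14c has a probe at -2.61 beside brighter probes at -0.04 and 0.02.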

How the data were processed

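Per the file headers, the deposited table used here holds linear probe intensity values of 9 arrays. A further deposited table holds log2 values. The submitters' processing notes list lumi, and gene reports deposited by the authors give a linear ratio of acetone over each compound. Probes carry no gene names in the value tables, so each took the name of the gene report entry with log2 ratios within 0.0001 of its own differences of group means, provided every other entry was at least 5 times more distant. This named 25649 of 25697 probes; 48 were left out. Names were updated through RefSeq (GRCm38.p6), and 671 probes kept the deposited name.

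Background correction used normexp with an offset of 50, followed by quantile normalization over 9 arrays and log2. The brightest probe of each gene was tested with lmFit and eBayes of limma 3.58.1 (R 4.3.3) on 6 arrays, two-sided, with Benjamini-Hochberg adjustment and a threshold of 0.05. Tables and plots used Python 3.11.15, numpy 2.4.6, pandas 2.3.3, scipy 1.17.1 and matplotlib 3.10.9. On simulated data with 200 of 17889 genes changed (10 draws), 64.4% were recovered at a log2 change of 0.585 and 92.2% at 1. Unchanged genes were called too, a median of 12 at a change of 0.585 and 18 at 1. The noise was drawn for each gene on its own from its SD in each group. Deviations shared by many genes on 1 array were not simulated, so recovery on the measured arrays may differ. No filter was applied. The members and the 34 lists were chosen with earlier results of these data known. Genes were named by a rule: the 15 largest called differences each way (arrays not overlapping; clone, prediction and date names left out), up to 4 called members with the smallest adjusted p of each list with at least 2, the 5 smallest SEs among called genes and a panel of 20 genes. The 17 alternatives changed the scaling, background correction, probe choice, filter or fit, used the deposited log2 values, added a replicate block or left out each array. Same-numbered BaP and DMBA arrays did not deviate together (r = -0.131, -0.0155 and -0.186).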

Additional observations from a re-analysis of the deposited data

How the results depend on the processing

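The counts of called genes (261, of which 121 higher and 140 lower, and 124 of at least 1.5-fold) moved by over 1.5 times under these settings. Median scaling gave 2072 genes, 53 higher and 2019 lower, and 609 of at least 1.5-fold. An offset of 16 gave 145, 60 and 85. A fit over all 9 arrays gave 458, 221 and 237. With the replicate block the counts were 136, 56 and 80, and 134 of the main calls were kept, although the replicate numbers were not found to pair the arrays. Without background correction 74, and with the deposited log2 values 65, passed at 1.5-fold or more. Leaving out 1 array at a time gave 77 to 774 genes, 29 to 325 higher, 48 to 449 lower, and 70 to 152 of at least 1.5-fold. The cause of these shifts was not tested. Each fit without 1 array holds fewer samples. The count rose to 774 without DMBA replicate 3 and to 290 without DMBA replicate 1. It fell to between 77 and 90 without any other array.

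Of 77 named genes that were called, 34 were called under all 17 alternatives, and none of the 93 named genes reversed a called direction. Among all 261 calls, 2 changed sign with median scaling. Over all genes, 51 calls (12 higher, 39 lower) were kept under every alternative other than the filter on dim genes. With 3 arrays a group, log2 changes near 0.585 can be missed, and dim probes have folds that are too small.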

Other observations

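Some probes passed the threshold while the brighter probe of the same gene, which stood for it, did not. There were 30 such probes above the median level, in 28 genes, 14 higher and 16 lower with BaP. In 7 of these genes the brighter probe had the opposite sign. These genes were chosen after their values were seen.

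The largest such difference was in Tmem14c, which encodes a mitochondrial membrane protein needed for haem synthesis. A probe with a mean level of 7.84 read 8.50, 8.76 and 8.54 with DMBA, 5.84, 6.16 and 5.98 with BaP and 8.74 to 9.05 with acetone. BaP was far below both other groups, and the difference was -2.61 (SE 0.11, adjusted p = 2.52e-07 in limma over all probes). The brighter probes of Tmem14c, at 11.03 and 10.45, differed by -0.04 and 0.02.

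Sri, which encodes the calcium-binding protein sorcin, had a probe at 9.79, 9.66 and 9.63 with DMBA and 8.42, 8.23 and 8.33 with BaP, a difference of -1.36 (SE 0.09, adjusted p = 1.39e-05). Its brightest probe differed by 0.29 (adjusted p = 0.171). Gde1, a glycerophosphodiester phosphodiesterase, had a probe at 8.82, 8.73 and 8.56 with DMBA, 7.36, 7.57 and 7.22 with BaP and 7.86, 7.80 and 7.84 with acetone, a difference of -1.32 (SE 0.11, adjusted p = 0.000101), while its brightest probe differed by 0.03. The kinase gene Riok1 had a probe at -0.83 and a brightest probe at 0.03.

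Mff, the mitochondrial fission factor, had a probe that was higher with BaP: it read 6.79, 6.75 and 6.62 with DMBA and 7.78, 7.61 and 7.62 with BaP, a difference of 0.95 (SE 0.09, adjusted p = 0.000254). Its brightest probe differed by -0.10. Cdk2, a kinase of the cell cycle, had 2 probes that passed, at 0.68 (adjusted p = 0.00697) and 0.66 (adjusted p = 0.00810), beside a brightest probe at 0.35 (adjusted p = 0.239).

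Among macrophage markers, further probes passed for Adgre1 (-0.77, adjusted p = 0.00617), Lyz2 (-0.70, adjusted p = 0.0110) and Slc11a1 (-0.69, adjusted p = 0.00810), an iron transporter of phagosomes that is in none of the lists used here. Their brightest probes differed by -0.46, -0.36 and -0.19 and did not pass. What these probes detect, transcript forms included, was not tested.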
